A study of Saccharomyces cerevisiae with 4 samples.

Results

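A set of 10 genes of vacuolar proteolysis and of the cytoplasm to vacuole targeting (Cvt) pathway of Saccharomyces cerevisiae is described here, out of 6063 genes with a spot on at least 1 of 4 spotted arrays. The 10 genes were picked by function and found by the ORF name of each spot: PEP4 (YPL154C), PRB1 (YEL060C), PRC1 (YMR297W), CPS1 (YJL172W), APE1 (YKL103C), APE3 (YBR286W), LAP3 (YNL239W), PBI2 (YNL015W), ATG8 (YBL078C) and ATG19 (YOL082W). All 10 were read on all 4 arrays. The study asked which genes respond to zinc deficiency and to Zap1, the transcription factor that activates zinc-deficiency genes, and compared poly(A) RNA of paired cultures on 2-colour arrays. In experiment E4 the test culture was strain DY1457 in low zinc medium (LZM, which holds strong metal chelators) with 3 μM zinc, and its reference was the same strain in LZM with 3000 μM zinc. In experiment E3 the test culture was DY1457 with plasmid-borne Zap1TC, a constitutive Zap1 allele driven by the galactose-inducible GAL1 promoter, and its reference was DY1457 with the empty vector pYef2. Both E3 cultures grew in SD galactose with 1 μM added zinc, and all 4 kinds of culture kept the chromosomal ZAP1 gene of this wild type. Each experiment had 2 biological replicates, 1 array each.

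The vacuole is the main degradative compartment of yeast. Most of its proteases are made as inactive precursors, travel through the secretory pathway, and are matured in the vacuole by a cascade that proteinase A starts and proteinase B extends. Aminopeptidase I takes a different route: it is assembled in the cytosol, bound by its receptor Atg19, wrapped in a membrane that carries Atg8, and delivered as Cvt cargo, while in starvation much of the same machinery forms autophagosomes.

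Values are log2 ratios of the test culture (Cy5) over its reference (Cy3), so that a positive value is more mRNA in zinc-limited cells in E4 and in Zap1TC cells in E3. A gene was called higher or lower where limma's Benjamini-Hochberg adjusted p, over all genes read on both arrays, was under 0.05. The dyes had the same orientation on all 4 arrays, so a gene-specific dye effect and the condition cannot be told apart, and the tests measure the spread between 2 arrays per experiment. The arrays held 10036 and 10295 read spots in E4 and 11303 and 11040 in E3. Between replicate arrays Pearson's r of the log2 ratios was 0.940 in E4 (5129 genes) and 0.944 in E3 (5780 genes), and genes are not independent replicates. The labels were checked with ZAP1 and ZRT1, the high-affinity zinc transporter: ZAP1 was at least 2.80-fold higher in E4, with Cy3 not well above background, and at a log2 ratio of 6.65 ± 0.26 in E3, while ZRT1 read 6.64 ± 0.28 in E4 and 5.36 ± 0.18 in E3 (SD, n = 2 each). The 4 alpha-specific genes of this mating type α strain were well above background in 32 of 32 channel readings, but the 5 a-specific genes also were in 21 of 24, so the threshold did not separate the mating types. limma called 3 of the 4 alpha-specific genes lower in E4 and 4 in E3, where 25.0% and 29.4% of all genes were lower. Of the a-specific genes, 1 of 1 tested in E4 and 2 of 4 tested in E3 were higher, where 25.9% and 29.4% of all genes were.

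In zinc-limited cells 8 of the 10 genes were higher and 2 lower by limma, where 25.9% of all genes were called higher and 25.0% lower. In Zap1TC cells the counts were again 8 and 2, where 29.4% of all genes were called higher and 29.4% lower. The median log2 ratio of the 10 genes was 0.81 in E4 and 0.47 in E3, and the medians of all genes were at 0.00. By the study's fold rule, a mean of at least 1.5-fold with each array at least 1.4-fold, 7 genes were up in E4 (PEP4, PRB1, PRC1, CPS1, LAP3, PBI2 and ATG19) and 4 in E3 (PRB1, PRC1, LAP3 and ATG19), against 4.64% and 7.01% of all genes. None of the 10 was down by that rule, which held for 1.93% of all genes in E4 and 5.35% in E3. The study put PRB1, PRC1, LAP3 and ATG19 among potential Zap1 targets with the help of the E3 arrays. For PRB1 the E4 arrays were used as well, and PRC1 was already a target from earlier arrays. A rise on the arrays that were used to pick a gene is not independent evidence. The study also measured PRB1 and LAP3 by nuclease protection on RNA not used for arrays, and reported the same pattern. PEP4 was also listed by the study as a Zap1 target, from earlier arrays not analysed here. The study counted PEP4 among the earlier targets that its E3 arrays did not bear out. Without PRB1, PRC1, LAP3 and ATG19, 4 of 6 were higher and 2 lower in each experiment, and 3 passed the fold rule in E4 and 0 in E3.

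**Figure D1:**
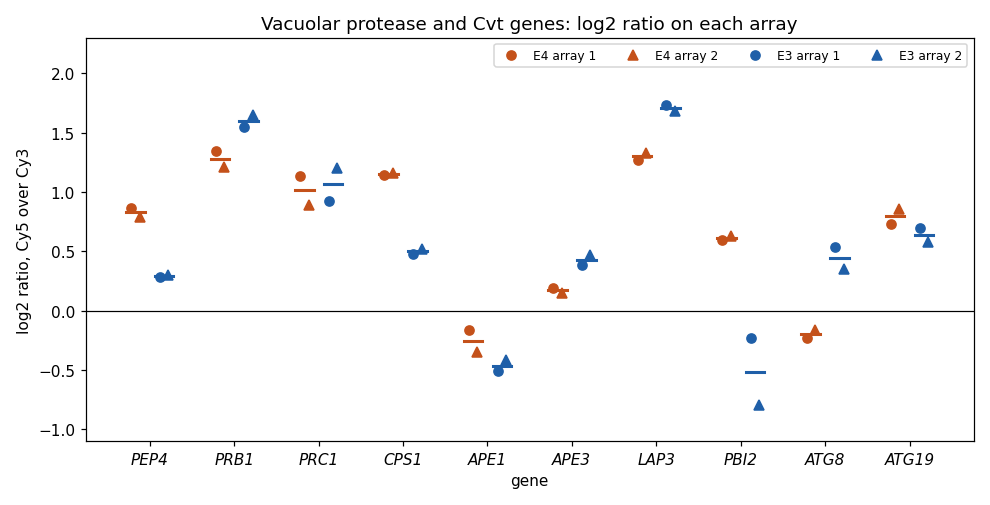
Log2 ratio of Cy5 over Cy3 (vertical axis) of each gene on each of the 4 arrays, E4 left of E3; circles are array 1, triangles array 2 and bars the mean. LAP3 and PRB1 are the highest genes in both experiments, and PBI2 in E3 has the widest gap between arrays, from −0.80 to −0.23.

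The endoproteinases head the maturation cascade. PRB1, the subtilisin-type proteinase B, read 1.34 and 1.21 on the E4 arrays and 1.55 and 1.65 on the E3 arrays. All 4 values were above 1, and both E3 values were above both E4 values. The PRB1 spots of E4 array 1 stood 276 and 298 scanner units over local background in Cy5, against 83.5 and 91.6 in Cy3. PRB1 rose 2.43-fold in zinc-limited cells (1.28 ± 0.09, adjusted p = 1.24e-07, limma) and ranked 50 from the top of 5129 genes. In Zap1TC cells it rose 3.03-fold (1.60 ± 0.07, adjusted p = 2.46e-08, limma) and ranked 43 of 5780. PEP4, the aspartyl proteinase A that starts the cascade, read 0.87 and 0.79 in E4 and 0.28 and 0.30 in E3. Its E4 values were well clear of its E3 values, with little spread within either experiment. PEP4 rose 1.78-fold in zinc-limited cells (0.83 ± 0.05, adjusted p = 2.37e-06, limma) and 1.22-fold in Zap1TC cells (0.29 ± 0.01, adjusted p = 0.00201, limma, SD, n = 2). The E3 call of PEP4 was lost with the authors' deposited log2 values, at 0.10, while loess within print-tip blocks gave 0.67.

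PRC1 and CPS1, the carboxypeptidases among the 10 genes, rose in both experiments. PRC1, carboxypeptidase Y, a serine enzyme long used to follow vacuolar sorting, read 1.14 and 0.89 in E4 and 0.92 and 1.21 in E3, so the experiments overlapped. It rose 2.02-fold in zinc-limited cells (1.02 ± 0.17, adjusted p = 5.15e-06, limma) and 2.09-fold in Zap1TC cells (1.07 ± 0.20, adjusted p = 1.96e-06, limma). CPS1, the zinc-dependent carboxypeptidase S, read 1.15 and 1.16 in E4 and 0.47 and 0.52 in E3. The E4 arrays differed by little and lay far above the E3 arrays. CPS1 rose 2.22-fold in zinc-limited cells (1.15 ± 0.01, adjusted p = 1.5e-07, limma, rank 60 of 5129) and 1.41-fold in Zap1TC cells (0.50 ± 0.03, adjusted p = 4.71e-05, limma, rank 565 of 5780), where its ratios of 1.39 and 1.44 fell short of the study's rule.

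The aminopeptidases did not move together. LAP3, a cysteine aminopeptidase also known as bleomycin hydrolase and, from galactose studies, as GAL6, read 1.27 and 1.33 in E4 and 1.73 and 1.68 in E3. It was the highest of the 10 genes in both experiments, and both E3 values were above both E4 values. LAP3 rose 2.47-fold in zinc-limited cells (1.30 ± 0.04, adjusted p = 6.1e-08, limma, rank 47 of 5129) and 3.27-fold in Zap1TC cells (1.71 ± 0.04, adjusted p = 8.79e-09, limma, rank 33 of 5780). APE3, the vacuolar aminopeptidase Y, read 0.19 and 0.14 in E4 and 0.38 and 0.47 in E3. All its values were above 0, and the E3 ones were the higher. APE3 rose 1.34-fold in Zap1TC cells (0.42 ± 0.06, adjusted p = 0.000174, limma). In zinc-limited cells it was 1.12-fold higher (0.17 ± 0.03, adjusted p = 0.0417, limma). That call was lost without background correction, with plain subtraction, with loess within print-tip blocks and with the deposited values (adjusted p = 0.202 with the last, limma). It was also lost with the replicate number as a block and with an intensity trend and robust prior. Leaving out an E4 array gave 0.14 or 0.19, which does not test the call.

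APE1, the zinc-dependent aminopeptidase I and main Cvt cargo, was the only gene of the 10 with values below 0 on all 4 arrays, at −0.17 and −0.35 in E4 and −0.51 and −0.42 in E3. In Zap1TC cells it was 1.38-fold lower (−0.47 ± 0.07, adjusted p = 0.000172, limma), with Cy5 spots of 175 and 199 units over background against Cy3 spots of 280 and 326 on array 1. In E4 the APE1 spots were close to background: on array 1 they stood at −1.12 and 9.53 units in Cy5 against 16.6 and 26.7 in Cy3, and on array 2 the only spot stood at −1.74 in Cy5 against 21.0 in Cy3. Cy5 was thus not well above background on either E4 array, meaning that it did not exceed the background around the spot by 2.6 times the SD of the backgrounds in Cy5. limma's E4 value for APE1 was −0.26 ± 0.13 (adjusted p = 0.00929), but no fold can be given. The E4 call was lost without background correction (−0.04, adjusted p = 0.594, limma) and with loess within print-tip blocks (−0.16, adjusted p = 0.052, limma). It was also lost with the deposited values (−0.04, adjusted p = 0.595, limma), and plain subtraction left no E4 value. Without E4 array 2 the value was −0.17, from a single array.

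PBI2 encodes a cytosolic inhibitor of proteinase B, and it was called in opposite directions in the experiments. Its log2 ratios were 0.60 and 0.63 in E4 and −0.23 and −0.80 in E3. The E4 arrays differed by little, while the E3 arrays differed more than for any other of the 10 genes, and only 1 PBI2 spot was read on E3 array 2. PBI2 rose 1.53-fold in zinc-limited cells (0.61 ± 0.02, adjusted p = 0.000906, limma) and was 1.43-fold lower in Zap1TC cells (−0.51 ± 0.40, adjusted p = 0.00177, limma). That single E3 spot read 612 units over background in Cy5 against 1086 in Cy3. Leaving out E3 array 2 or array 1 gave −0.23 or −0.80. With 1 E3 array left the spread within E3 cannot be measured, so these fits do not test the call.

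The Cvt factors differed from each other. ATG19, the receptor that ties the aminopeptidase I complex to the forming membrane, read 0.73 and 0.86 in E4 and 0.70 and 0.58 in E3. All 4 values were well above 0, and the E4 values were the higher. ATG19 rose 1.73-fold in zinc-limited cells (0.79 ± 0.09, adjusted p = 5.79e-06, limma) and 1.56-fold in Zap1TC cells (0.64 ± 0.08, adjusted p = 1.45e-05, limma). ATG8, the ubiquitin-like protein conjugated to the lipid of the forming membrane, read −0.23 and −0.16 in E4 and 0.53 and 0.35 in E3. The E4 values were below 0 and the E3 values above it. ATG8 rose 1.36-fold in Zap1TC cells (0.44 ± 0.13, adjusted p = 0.000227, limma). In E4 its only spot on each array stood at 3.21 and 12.6 units in Cy5, not well above background, against 22.8 and 24.5 in Cy3. limma's value in zinc-limited cells was −0.20 ± 0.05 (adjusted p = 0.0317). The bound from the lowest signal well above background was 1.03-fold, a log2 value of 0.04 beside a standard error of 0.07, so no clear fall can be stated. Leaving out E4 array 1 or array 2 gave −0.16 or −0.23, which does not test the call.

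**Figure D2:**
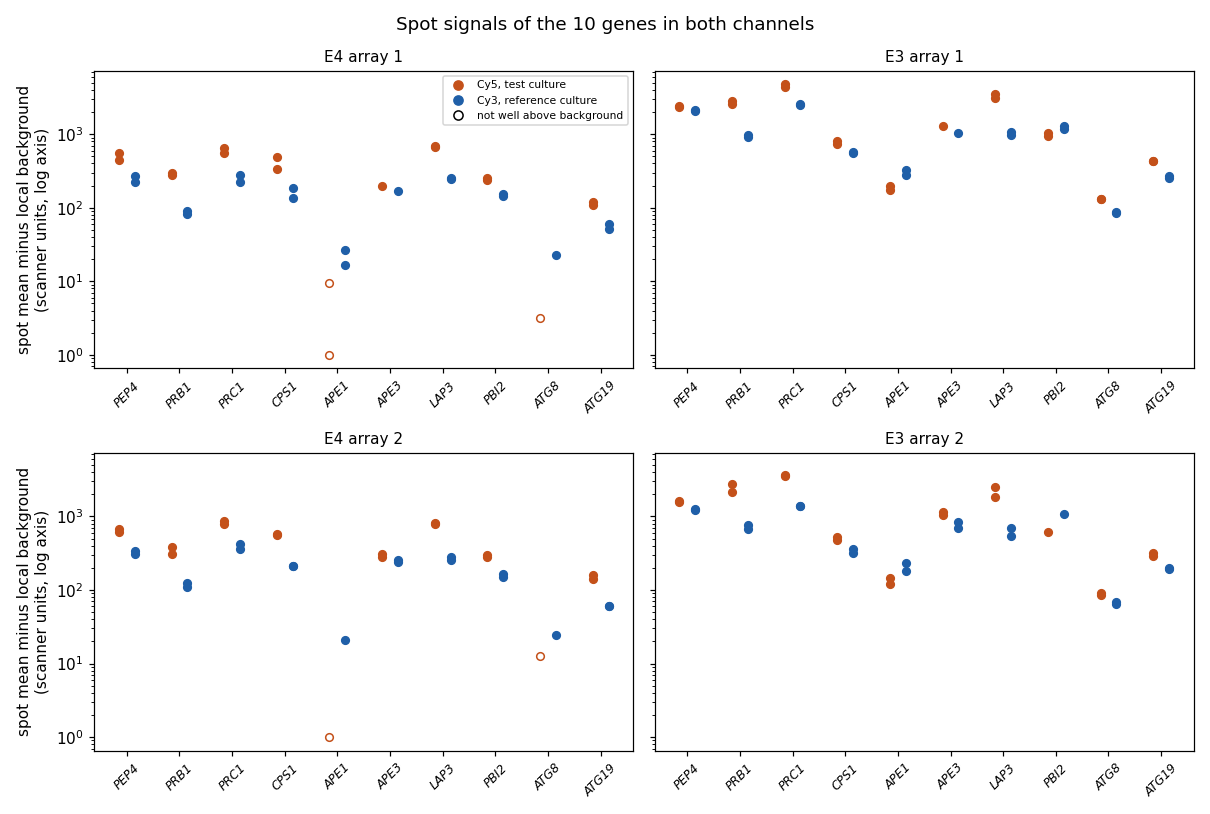
Mean spot intensity minus local background (scanner units, log axis) of every spot of the 10 genes, with Cy5 (test culture) left of Cy3 (reference culture) and a panel for each array; open circles were not well above background, and the APE1 spots at −1.12 and −1.74 units are drawn at 1. Only APE1 and ATG8 in Cy5 of the E4 arrays fall below the threshold.

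By catalytic class, the 4 aspartic, serine and cysteine proteases (PEP4, PRB1, PRC1 and LAP3) were all called higher in both experiments. Their log2 ratios were 0.83 to 1.30 in E4 and 0.29 to 1.71 in E3. Of all genes, 25.9% were called higher and 25.0% lower in E4, and 29.4% each in E3. The study picked PRB1, PRC1 and LAP3 with the help of the E3 arrays and PEP4 from earlier arrays, so the class is not separate from that choice. The metallopeptidase CPS1 read above PEP4 in both experiments. Of the 3 metallopeptidases, CPS1 and APE3 were called higher and APE1 lower in both experiments. In E4 the call of APE3 was lost with several alternatives, and the Cy5 signal of APE1 was not well above background. CPS1 and APE3 read 1.15 and 0.17 in E4, and no fold can be given there for APE1. In E3 the 3 metallopeptidases covered −0.47 to 0.50, a narrower range than that of the proteases.

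The 10 genes stood lower in the ranking of signals on the E4 arrays than on the E3 arrays, in both channels. In the reference channel PRB1 stood at percentiles 49.7 and 49.98 of the 4992 genes read on all arrays in E4, and at 91.5 and 92.8 in E3. PBI2 stood at 59.6 and 66.4 in E4 against 93.8 and 95.8 in E3, and APE1 at 6.59 and 9.72 against 74.1 and 75.9. PRC1 was at 79.0 and 82.0 in E4 and 97.3 and 97.8 in E3. For all 10 genes both E4 arrays were below both E3 arrays in Cy3, as for 42.7% of all genes, and in Cy5, as for 44.8%. These percentiles are a description of different cultures, media and arrays, which cannot be told apart.

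The contrast of E4 minus E3 asks whether a gene's ratio differed between the experiments, and it also compares the media, the carbon sources, and a change of zinc with a plasmid-borne allele. The E4 ratio was higher for 3 of the 10 genes, PBI2, CPS1 and PEP4, where 26.8% of all genes were so called, and lower for 4, ATG8, LAP3, PRB1 and APE3, where 21.7% were. PBI2 had the widest difference, 1.13 (95% interval 0.79 to 1.46, adjusted p = 0.000149, limma). CPS1 differed by 0.65 (0.47 to 0.84, adjusted p = 0.00013, limma) and PEP4 by 0.54 (0.35 to 0.73, adjusted p = 0.000482, limma). The call of PEP4 was lost with loess within print-tip blocks (0.11, adjusted p = 0.315, limma). ATG8 differed by −0.64 (−0.85 to −0.43, adjusted p = 0.000303, limma), with the E4 side near background, and by −1.51 with plain subtraction. LAP3 differed by −0.41 (−0.60 to −0.21, adjusted p = 0.00277, limma), which missed the threshold with plain background subtraction (adjusted p = 0.0625, limma). PRB1 differed by −0.32 (−0.52 to −0.12, adjusted p = 0.0151, limma) and APE3 by −0.26 (−0.45 to −0.06, adjusted p = 0.0327, limma). The call of PRB1 was lost with plain subtraction, at −0.06, and with print-tip loess, at −0.18. That of APE3 was lost with plain subtraction (−0.28), with print-tip loess (−0.13), and with an intensity trend and robust prior (adjusted p = 0.0546, limma). PRB1 and APE3 differed by −0.25 and −0.23 without E4 array 2, and by −0.27 and −0.21 without E3 array 2. Without E4 array 1 the difference of APE3 was −0.28. A single array shows no spread, so these fits do not test the calls. PRC1, ATG19 and APE1 were not called: their intervals were −0.31 to 0.21, −0.05 to 0.36 and −0.00 to 0.42, so differences within those bounds could not be told from 0 with these arrays. Plain subtraction gave ATG19 a call, at 0.48. APE1 gained one with the deposited values, at 0.47, and without background correction, at 0.44.

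**Figure D3:**
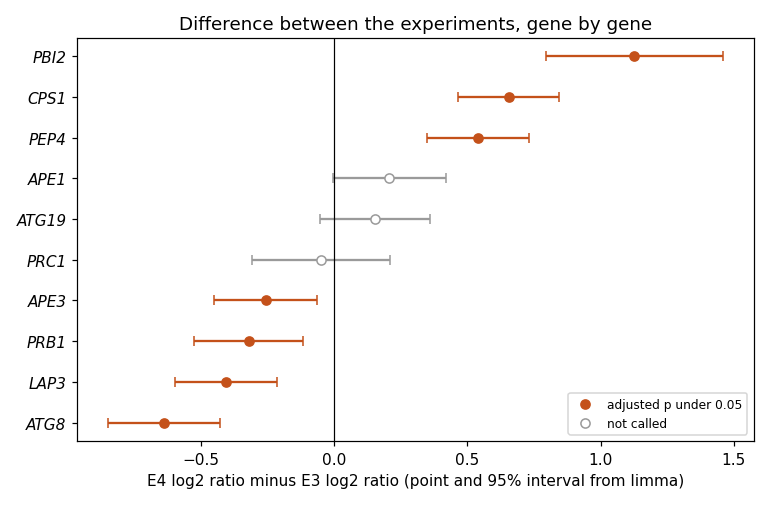
Log2 ratio of E4 minus that of E3 for each gene (horizontal axis), with the 95% interval from limma; filled points had an adjusted p under 0.05. PBI2, CPS1 and PEP4 lie to the right of 0, ATG8, LAP3, PRB1 and APE3 to the left, and the other intervals include 0.

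**Figure D4:**
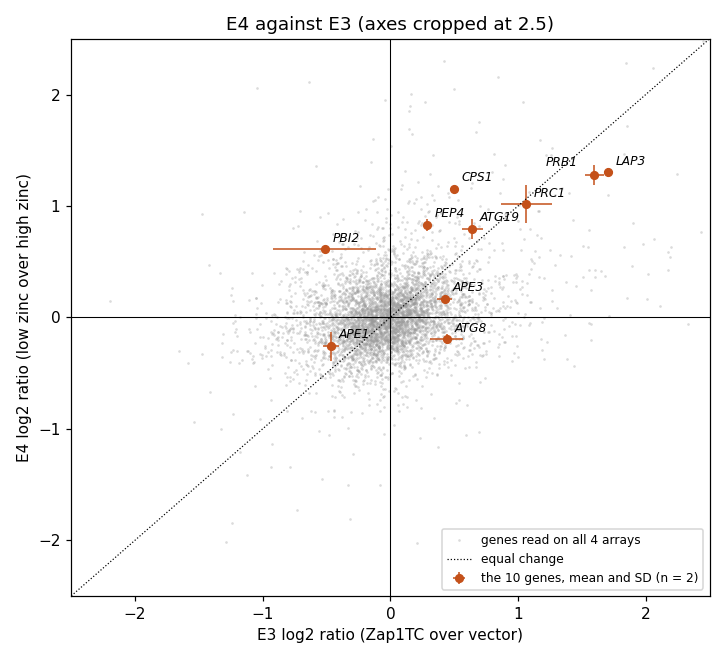
E4 log2 ratio (vertical) against E3 log2 ratio (horizontal); grey points are genes read on all 4 arrays, orange points the 10 genes with SD (n = 2), and genes beyond 2.5 on either axis are not drawn. 7 of the 10 genes lie in the upper right quadrant, APE1 in the lower left, PBI2 in the upper left and ATG8 in the lower right.

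Inhibitors of the other proteases could be set beside PBI2. TFS1, the inhibitor of carboxypeptidase Y, rose 4.15-fold in zinc-limited cells (2.05 ± 0.15, adjusted p = 6.22e-09, limma) and 1.41-fold in Zap1TC cells (0.49 ± 0.11, adjusted p = 0.00018, limma). Its E4 ratio was thus 1.56 above its E3 ratio (adjusted p = 1.79e-06, limma), while the ratios of PRC1, which encodes its target, were 1.02 and 1.07. For proteinase B the ratios of PRB1 and PBI2 were 1.28 and 0.61 in E4 and 1.60 and −0.51 in E3. PAI3, the inhibitor of proteinase A, rose in Zap1TC cells by 1.34-fold (0.43 ± 0.02, adjusted p = 0.000296, limma), beside 0.29 for PEP4, and was not read in E4.

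Of 38 other Atg and Cvt genes, 8 of the 24 read in E4 were higher and 2 lower, and 17 of the 33 read in E3 were higher and 2 lower. The share called higher was 33.3% in E4 and 51.5% in E3, beside 25.9% and 29.4% of all genes, and the share called lower was 8.33% in E4 and 6.06% in E3, beside 25.0% and 29.4%. ICY2, which the reference annotation names ATG41 and which the study also listed as a target, rose 4.86-fold in zinc-limited cells (2.28 ± 0.09) and 3.60-fold in Zap1TC cells (1.85 ± 0.07). ATG29, of the Atg17 scaffold complex, was higher in both (0.79 ± 0.22 in E4, 0.39 ± 0.08 in E3), as was ATG33, a mitophagy factor (0.19 ± 0.12 in E4, 0.92 ± 0.02 in E3). ATG23, which acts in Atg9 transport, was lower in E4 (−0.46 ± 0.02) and higher in E3 (0.38 ± 0.00). SNX4, an endosomal sorting nexin, likewise was lower in E4 (−0.27 ± 0.03) and higher in E3 (0.22 ± 0.11). The genes called lower in E3 were ATG12 (−0.34 ± 0.14), a ubiquitin-like protein, and VAC8 (−0.20 ± 0.08), a vacuolar membrane protein. Each of these calls passed limma's threshold. In this list a rise was more frequent than a fall in both experiments, and the direction was not tested over the list.

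The other hydrolases of the vacuole had log2 ratios of −0.23 to 0.28 in E4 and −0.29 to 0.50 in E3. PRB1 and PRC1 lay above both ranges, and APE3 lay within both. Of these 9 other hydrolases, 2 of the 5 read in E4 were higher and 2 lower, and 4 of 9 in E3 were higher and 2 lower. Of all genes, 25.9% were higher and 25.0% lower in E4, and 29.4% each in E3. DAP2, dipeptidyl aminopeptidase B, was higher in zinc-limited cells (0.28 ± 0.10) and lower in Zap1TC cells (−0.24 ± 0.01), the same signs as PBI2, and both passed limma's threshold. PHO8, the vacuolar alkaline phosphatase, was higher in both (0.17 ± 0.05 in E4, 0.50 ± 0.09 in E3). AMS1, the α-mannosidase that also travels as Cvt cargo, was higher in Zap1TC cells (0.41 ± 0.05), where APE1 was lower. ATG15, a vacuolar lipase, was lower there (−0.29 ± 0.04). In E4 the genes called lower were PPN1, a polyphosphatase (−0.23 ± 0.09), and PFF1, a membrane metalloprotease of the vacuole, whose Cy5 signal was not well above background. Of 3 cytosolic aminopeptidases, APE2 was higher in both experiments (0.36 ± 0.04 in E4, 0.43 ± 0.14 in E3) and LAP2 in E3 (0.58 ± 0.02).

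Of 19 sorting genes, 3 of the 17 read in E4 were higher and 2 lower, and 5 of 18 in E3 were higher and 4 lower. The shares were 17.6% higher and 11.8% lower in E4, beside 25.9% and 25.0% of all genes, and 27.8% higher and 22.2% lower in E3, beside 29.4% each. VPS5 and VPS17 encode partner sorting nexins of the retromer: VPS5 was higher in E4 (0.51 ± 0.11), and VPS17 was at least 1.39-fold lower in E4, with Cy5 not well above background, and higher in E3 (0.47 ± 0.06). VPS1, a dynamin, was higher in both (0.22 ± 0.02 in E4, 0.32 ± 0.04 in E3), and VAM3, a vacuolar syntaxin, was lower in E4 (−0.16 ± 0.04). In E3 the endosomal syntaxin PEP12 was higher (0.46 ± 0.05), and VPS21, a Rab GTPase, and VPS9, its exchange factor, were lower (−0.39 ± 0.10 and −0.35 ± 0.00). Of 15 V-ATPase genes, 6 of the 13 read in E4 were higher and 1 lower, and 2 of 12 in E3 were higher and 4 lower. The shares were 46.2% higher and 7.69% lower in E4, beside 25.9% and 25.0% of all genes, and 16.7% higher and 33.3% lower in E3, beside 29.4% each. VMA1, the catalytic subunit, led the rises in E4 (0.55 ± 0.06). VPH1, the subunit that places the pump at the vacuole, was higher in both (0.50 ± 0.10 in E4, 0.27 ± 0.09 in E3), as was its Golgi counterpart STV1 (0.38 ± 0.03 in E4, 0.17 ± 0.06 in E3). VMA13 was called in opposite directions, higher in E4 (0.21 ± 0.08) and lower in E3 (−0.38 ± 0.06), and the difference passed (0.59, adjusted p = 0.000363, limma). VMA7 was called lower in both, but its E4 value of −0.57 had an SD of 0.66.

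**Figure D5:**
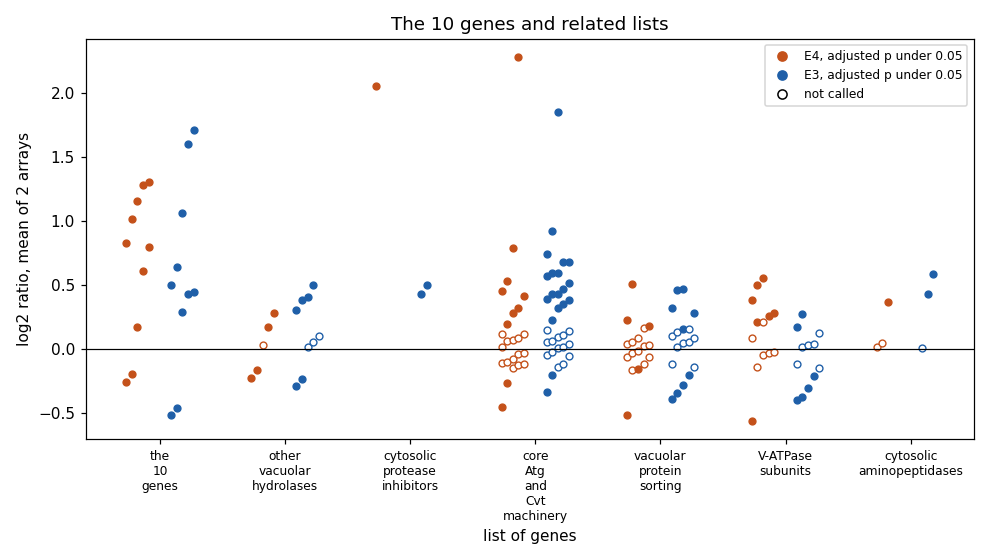
Log2 ratio (mean of 2 arrays) of each gene in the 10 genes and 6 related lists, E4 left of E3; filled points had an adjusted p under 0.05 in limma. Beyond the 10 genes only ICY2 and TFS1 exceed 1.

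The genes next to the members on the chromosome were looked up in the reference annotation. Of 20 neighbours, 5 of the 13 read in E4 were higher and 0 lower, and 6 of 17 in E3 were higher and 4 lower. The share called higher was 38.5% in E4 and 35.3% in E3, beside 25.9% and 29.4% of all genes. The share called lower was 0% in E4 and 23.5% in E3, beside 25.0% and 29.4%. TOH1 (YJL171C), beside CPS1, rose in both, with 0.89 in E4 (adjusted p = 3.45e-06, limma) and 0.82 in E3 (adjusted p = 3.6e-06, limma). The study listed TOH1 as a candidate Zap1 target with the help of these same arrays. HAB1 (YBR285W), beside APE3, rose in Zap1TC cells (1.87, adjusted p = 4.3e-07, limma) and was not read on both E4 arrays. The study listed HAB1, with the help of the E3 arrays, as a potential target without a detectable Zap1 binding site. YBR287W, on the other side of APE3, read 0.54 in E4 and 0.32 in E3, and both were called. ATG34, a paralog of ATG19 that lies beside it, read 0.43 in E3 (adjusted p = 0.000325, limma), and cross-hybridization between them was not tested. The neighbours of PEP4, PRB1 and PRC1 that were read had no call in the direction of these genes in either experiment. These neighbours were picked after their values were seen.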

How the data were processed

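The data are 4 spotted 2-colour arrays of strain DY1457, 2 for E4 and 2 for E3, with the test culture in Cy5 and its reference in Cy3 per the labels. The scanner tables hold, as deposited, for each spot and channel a mean intensity and the intensity of the background around it, neither subtracted nor normalized. The deposited value table holds log2 ratios after a LOWESS normalization of each slide by the authors, and it served as an alternative. Genome build and scanner software are not given in the sources used here. The precision is limited by the number of arrays, and no read depth applies.

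Background was removed by normexp (offset 50), a loess curve (span 0.3) was fitted within each array, and the log2 values of a gene's spots were averaged. limma 3.58.1 in R 4.3.3 was run on the 4 arrays together, each experiment having its own coefficient (2 residual degrees of freedom, prior 8.53), with empirical Bayes and Benjamini-Hochberg adjustment at 0.05, two-sided, over all genes read on both arrays of an experiment, or on all 4 for the difference. The fit was tested on simulated data. A fold against a channel not well above background was given as a bound from the lowest signal well above background. Genes were named by the RefSeq table: all 107 listed genes matched a symbol or synonym, and 103 were on at least 1 array. Gene coordinates served only to find the neighbours on the chromosome. No sequence was used, and a planned description of promoter motifs was not run.

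The genes named are the 10 members with ZAP1 and ZRT1, and from each related list (other vacuolar hydrolases, protease inhibitors, Atg and Cvt machinery, vacuolar sorting, V-ATPase, cytosolic aminopeptidases) up to 2 called genes with the largest rise and 2 with the largest fall per experiment. The members and lists were chosen with earlier results of these data known. The alternatives changed the background correction, the loess, the scaling, the filter on dim genes, the source of the ratios, the arrays fitted, the replicate block, the prior and the thresholds.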

Additional observations from a re-analysis of the deposited data

Results flagged for a closer look

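The E4 and E3 responses of 7 of the 10 genes differed by limma's test of the difference, which compares 2 arrays with 2 arrays. Of all genes, 26.8% were called with an E4 ratio above that of E3 and 21.7% with one below it. The E4 log2 ratio was above that of E3 by 0.54 for PEP4, by 0.65 for CPS1 and by 1.13 for PBI2. The difference of E4 minus E3 was −0.32 for PRB1, −0.26 for APE3, −0.41 for LAP3 and −0.64 for ATG8. PBI2 was the only one of these with called values of opposite sign and signal well above background in every channel; on E3 array 2 it had a single spot. ATG8 also had called values of opposite sign, with its Cy5 signal in E4 not well above background. The difference lost its call for PEP4 with print-tip loess, for LAP3 with plain subtraction, and for PRB1 and APE3 with each of these settings. The part of the media, carbon sources and signal levels in these differences was not tested.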

How the results depend on the processing

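Of 378 recomputed values of single genes, 342 kept direction and side of the threshold, 27 lost a call, 3 gained a call and 6 changed sign. The cause was not tested. The dim filter, the replicate block, the prior and leaving out an array of the other experiment did not change a gene's E4 or E3 ratio. Direction was fixed in those fits, and the tally also holds fits with 1 array left in an experiment, so it overstates how much was tested. The changes of sign were differences of E4 minus E3 that were not called: ATG19 read −0.026 without background correction and −0.00203 with the deposited log2 values, and PRC1 read 0.0327 with plain subtraction, 0.115 with the deposited values and −0.19 to 0.0925 when 1 array at a time was left out. APE1 had no E4 value with plain subtraction, since its Cy5 signal was under background. The genes called lower in E4 numbered 1 without background correction, with plain subtraction, with loess within print-tip blocks and with the deposited values. They numbered 0 when at least 1.4-fold on both arrays was also asked, where the E3 counts were 4 higher and 0 lower. The genes with an E4 ratio below that of E3 numbered 1 with plain subtraction and 2 with print-tip loess. Fits with 1 array of an experiment left hold no spread for it, so they do not test the calls. A mean of at least 2-fold left 4 genes up in E4. APE1 lost its E4 call without background correction, with print-tip loess and with the deposited values. The replicate numbers of the experiments only share a name, as same-numbered deviations had an r of −0.0738 across 4992 genes. With the replicate number as a block the E4 counts were 7 higher and 2 lower: APE3 lost its call (0.17; adjusted p = 0.0539, limma) and no other call changed. Dim signals limit APE1 and ATG8 in E4.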
